A study of Mus musculus with 60 samples.

Results

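Colon tissue and stool collected at day 28 were compared for the bacteria each held. The members were every library whose title names colon (12) or stool (12) at that time, 24 of the 60 libraries in the series. All came from male mice. Per the design text there were 12 mice, 6 in each arm: one arm received polyethylene terephthalate (PET) nanoparticles by oral gavage at 0.5 mg per day in 0.1 ml, daily until day 28, and the other was not exposed. Each arm therefore gave 6 colon and 6 stool libraries. Amplicons of the V3 to V4 part of the 16S rRNA gene, which differs between bacterial taxa, were sequenced and counted per sequence feature, meaning a distinct amplicon sequence. No nucleotide sequence of a feature is printed, and features are identified by their deposited lineage and identifier.

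The colon is lined by mucus, and bacteria that live in or on that mucus sample a different habitat from those of the passing contents, which leave the body as stool. Spiral, motile bacteria of the genus Helicobacter are known as mucus dwellers of the rodent large bowel. Members of Bacteroidota that break down plant fibre and host glycans, and many fermenting Clostridia, are known from mouse stool.

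The colon libraries held 55824 to 278584 prokaryote counts and the stool libraries 245010 to 602162. Colon DNA was extracted with DNeasy Blood and Tissue reagents, the kit also used for lung, and stool DNA with DNeasy PowerLyzer PowerSoil reagents, so kit and site cannot be told apart. Between 0.333% and 7.66% of colon counts and at most 0.0411% of stool counts fell in features that were not assigned to a prokaryote. All values below are shares of prokaryote counts. More of one genus and less of the others, or a change of total bacterial load, therefore cannot be told apart. No label says which colon and stool libraries came from the same mouse, and the p-values measure the spread between libraries. The 2 exposure arms were pooled, with exposure as a block, unless an arm is named.

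By mean share, Helicobacter was the leading genus at the colon wall and a minor one in stool, although Lactobacillus exceeded it in colon control 2, at 40.7%. The Helicobacter share was 43.3%, 12.4%, 46.1%, 96.4%, 95.1% and 87.6% in the 6 control colon libraries and 78.3%, 39.6%, 91.1%, 87.6%, 55.2% and 47.7% in the 6 PET colon libraries. In stool the lowest share was 2.30%, the median 5.14% and the highest 7.41%. Every colon library therefore lay above every stool library, and the spread among colon libraries was much wider than that among stool libraries. The means were 65.0% ± 27.6 (SD, n = 12) in colon and 4.94% ± 1.72 (SD, n = 12) in stool, a ratio of 13.2. On the log2 scale the difference of mean shares was 3.63 (exact two-sided permutation test within arms, p = 2.34e-06, the smallest p these arrangements can give; adjusted p = 5.47e-06 over 7 community tests). It was 3.34 among control libraries and 3.92 among PET libraries, each with an exact permutation p of 0.00216, the smallest that 6 against 6 can give. The mean share was 1.05% in 12 lung libraries, which had the same kit as colon, and 0.219% in 12 oral swabs. Helicobacter was the 1 genus of 172 tested (0.581%) whose colon shares all lay above its stool shares.

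**Figure D1:**
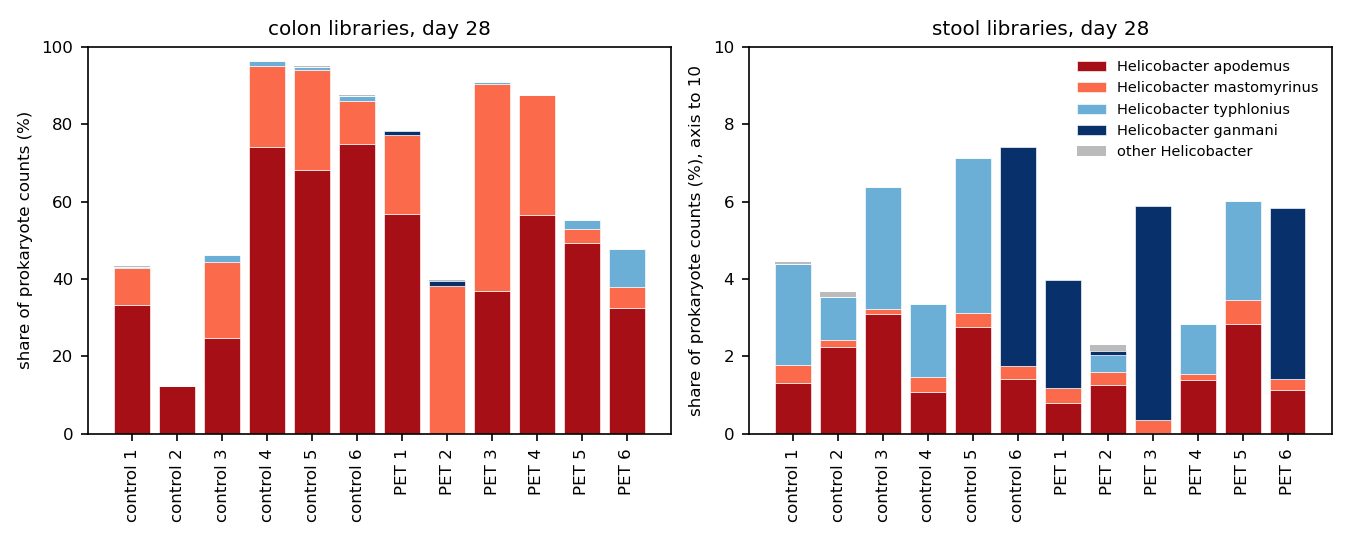
Share of prokaryote counts (%) taken by Helicobacter in each of 12 colon and 12 stool libraries, split by the 4 leading features and all others, with the stool axis ending at 10%. Colon libraries run from 12.4% to 96.4% and stool libraries from 2.30% to 7.41%, and the H. apodemus and H. mastomyrinus features fill most of the colon bars.

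Of 38 Helicobacter features seen at these sites, 4 had a mean share of at least 0.1% at either site, and these 4 did not move together. The leading colon feature, classified as H. apodemus (identifier de8469ffeeebdd518cc1d19a8373b785, classifier confidence 0.795), ranged from 0% to 74.9% of colon around a median of 43.1%, and from 0.0175% to 3.09% of stool around 1.35%. It was missing from 1 colon library, PET 2, where 0 of 133103 counts leaves room for at most 0.00225%. Its mean was 43.3% ± 24.1 (SD, n = 12) in colon and 1.61% ± 0.927 (SD, n = 12) in stool, a ratio of 26.9, and its fitted log2 difference was 5.27 (SE 0.84, edgeR adjusted p = 5.25e-07). The second, classified as H. mastomyrinus (identifier a433e3e99f31f24d34bcf65f527b4c24, confidence 0.936), was present in all 24 libraries. Its lowest, median and highest shares were 0.111%, 20.1% and 53.4% in colon and 0.125%, 0.346% and 0.612% in stool. The means of 19.96% ± 15.6 and 0.333% ± 0.137 (SD, n = 12 each) gave a ratio of 59.9 and a fitted log2 difference of 6.45 (SE 0.98, edgeR adjusted p = 2.47e-07). Both features were called higher in colon under all 4 scalings run on features.

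The other leading Helicobacter features did not follow them. The feature classified as H. typhlonius (confidence 0.996) was found in 10 colon and 9 stool libraries, at 1.497% ± 2.74 and 1.42% ± 1.41 (SD, n = 12 each). Its log2 difference of 0.51 (SE 1.24, edgeR adjusted p = 0.772) did not pass the test. The feature classified as H. ganmani (confidence 0.727) was found in 2 colon libraries, PET 1 at 0.958% and PET 2 at 1.28%. In stool it was found in 5 libraries, control 6 at 5.66%, PET 1 at 2.79%, PET 2 at 0.0952%, PET 3 at 5.52% and PET 6 at 4.42%. Its means were 0.186% ± 0.440 in colon and 1.54% ± 2.36 in stool (SD, n = 12 each), a stool to colon ratio of 8.27. The fitted log2 difference was -7.17 (SE 2.47, edgeR adjusted p = 0.0261), and -2.41 (adjusted p = 0.380) in PET libraries alone. The call with all libraries was lost in 15 of 24 fits that left out 1 library. Without stool control 6 the value was -1.88 (adjusted p = 0.332). No library held both the H. typhlonius and the H. ganmani feature above 0.1%. As a share of Helicobacter counts, the H. apodemus and H. mastomyrinus features together made up 79.2% to 99.8% in colon (median 98.6%) and 6.16% to 68.6% in stool (median 43.8%), so these ranges did not overlap. The remaining 34 Helicobacter features were small, summing to 0.132% ± 0.0896 of colon and 0.0328% ± 0.0606 of stool (SD, n = 12 each). Of them, 11 were detected in colon alone, 22 in stool alone and 1 in both. Among all 8 Helicobacter features tested, edgeR called 5 higher in colon and 1 lower, beside 4.38% and 14.7% of all features tested. Features seen at 1 site passed the presence filter through that site, so calls of them are a description.

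For the tests across genera, counts were compared with edgeR's quasi-likelihood F test, and a genus was called at a Benjamini-Hochberg adjusted p under 0.05. With TMM scaling, which sets a library factor from the genera that differ least, 49 of 172 genera were called higher (28.5%) and 7 lower (4.07%) in colon, 56 in all (32.6%). The median log2 difference over all genera was 1.96 under TMM, and TMM factors ran from 0.0978 to 3.99. Without colon PET 6, TMM called 88 genera, 68 higher and 20 lower. Under scaling to library totals the median was 0.25 and the counts were 60 higher (34.9%) and 35 lower (20.3%), 95 in all (55.2%). Because the scaling moved the zero point this far, 5 scalings were set side by side: TMM, TMMwsp, library totals, DESeq2 size factors and limma on centred log ratios. All 5 called the same 31 genera higher (18%) and 3 lower (1.74%), and at least 4 called 52 higher (30.2%) and 17 lower (9.88%). The Helicobacter genus was called higher in all 5, with log2 differences of 2.88 to 6.40.

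The genera lower at the colon wall were led by Bacteroidota of the gut contents. Together the 17 genera called lower under at least 4 scalings held 7.79% ± 7.98 of colon and 51.9% ± 5.30 of stool counts (SD, n = 12 each). They were unclassified Muribaculaceae, Bacteroides, Alistipes, Odoribacter, Parabacteroides, Prevotellaceae UCG-001, the Rikenellaceae RC9 gut group, the Clostridia vadinBB60 group, A2, Butyricicoccus, Marvinbryantia, UCG-009, Anaeroplasma, Mycoplasma, Gastranaerophilales, unclassified Rhodospirillales and the Rs-E47 termite group. Alistipes, a bile-tolerant genus of Rikenellaceae, ranged from 0.0238% to 1.49% in colon (median 0.189%) and from 4.32% to 10.2% in stool (median 5.48%), with no overlap. The log2 difference of Alistipes was -2.17 (SE 0.69, edgeR adjusted p = 0.0152) with TMM and -3.94 with library totals. It was the one genus above 1% of stool that all 5 scalings called lower. Odoribacter, a butyrate-forming genus of Bacteroidota, ranged from 0.0164% to 1.79% in colon and from 2.29% to 9.85% in stool, again with no overlap. The value for Odoribacter was -1.62 with TMM (adjusted p = 0.0662) and -3.56 with library totals (SE 0.72, adjusted p = 0.000323). A2, a small genus of Lachnospiraceae, was the third of 3 genera (1.74%) whose colon shares all lay below its stool shares.

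Bacteroides, a genus of glycan degraders, made up 1.52% ± 1.65 of colon (lowest 0.161%, median 1.12%, highest 6.30%) and 10.4% ± 3.57 of stool (3.97%, 9.98% and 16.0%; SD, n = 12 each). The log2 difference of Bacteroides was -1.09 with TMM (adjusted p = 0.104) and -2.78 with library totals (SE 0.59, adjusted p = 0.000487). Unclassified Muribaculaceae, the family that is abundant in mouse stool, made up 3.21% ± 4.25 of colon and 11.9% ± 3.57 of stool (SD, n = 12 each). For unclassified Muribaculaceae the TMM value of -0.88 did not pass the test (adjusted p = 0.284), while library totals gave -2.11 (adjusted p = 0.00797). Prevotellaceae UCG-001 had a median of 0.149% in colon and 4.997% in stool, with log2 differences of -1.43 (adjusted p = 0.104) and -3.34 (adjusted p = 0.000601) in the same order. Across these genera the shares differed by several fold in one direction, while TMM placed most of them short of the threshold.

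**Figure D2:**
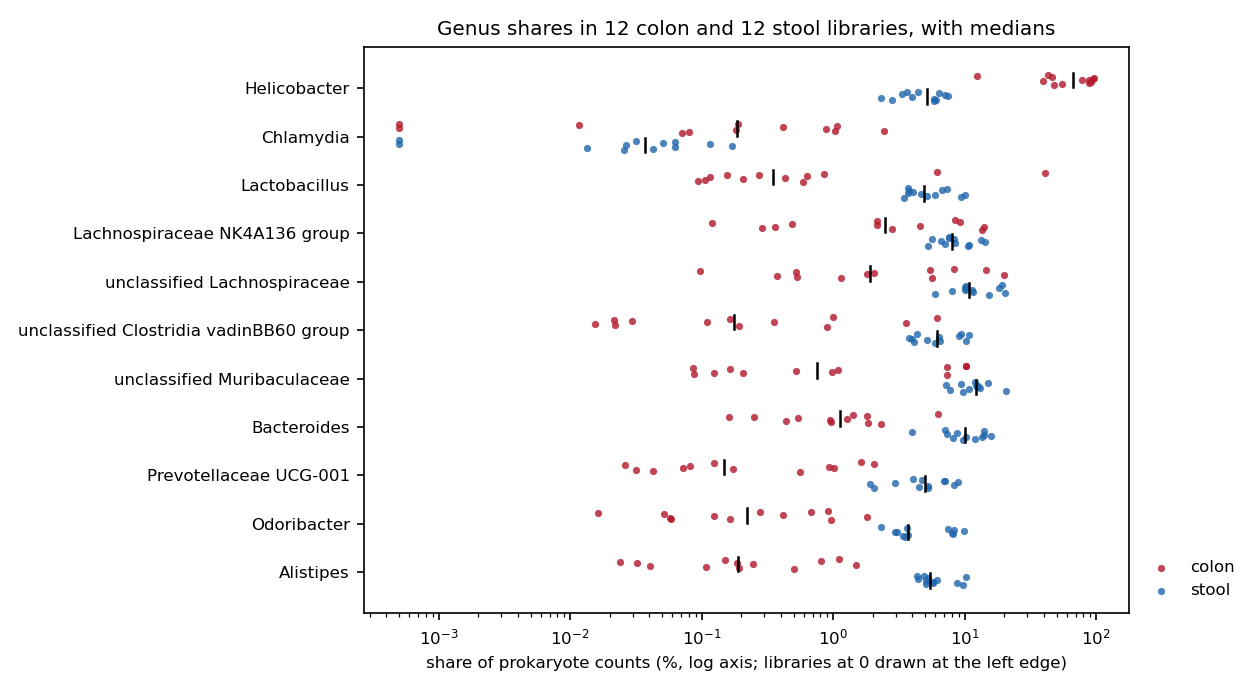
Share of prokaryote counts (%, log axis, libraries at 0 drawn at the left edge) of named genera in 12 colon and 12 stool libraries, one point per library. The colon points of Alistipes and Odoribacter all lie below their stool points, those of Helicobacter all lie above, and those of Lactobacillus spread from 0.0931% to 40.7%.

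Outside Bacteroidota, the Clostridia vadinBB60 group, uncultured gut Clostridia, had a median share of 0.178% in colon and 6.17% in stool. The log2 difference of the vadinBB60 group was -1.23 with TMM (adjusted p = 0.224) and -2.69 with library totals (adjusted p = 0.00487). Anaeroplasma, a wall-less anaerobe, was present in 7 colon and 12 stool libraries, with means of 0.0307% and 0.706%. Mycoplasma, also without a cell wall, was detected in 1 colon and 6 stool libraries and fell by 5.47 on the log2 scale in colon (SE 1.89, edgeR adjusted p = 0.0243). Gastranaerophilales, non-photosynthetic gut relatives of cyanobacteria, was detected in 4 colon and 11 stool libraries and fell by 4.61 (SE 1.77, adjusted p = 0.0426). Both were lower under all 5 scalings. The Mycoplasma call was lost by the exact permutation test per genus (log2 -2.33, adjusted p = 0.143) and in PET libraries alone (-5.04, adjusted p = 0.0812). The Gastranaerophilales call was lost in 8 of 24 fits without 1 library, and without stool control 1 the value was -2.41 (adjusted p = 0.125). The other genera that TMM called lower, Anaerofustis, Lachnospiraceae UCG-004, Paludicola and Parvibacter, were found in no colon library and averaged below 0.01% of stool, so they passed the presence filter through stool alone.

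The direction or call of several abundant fermenters depended on how the counts were processed. Unclassified Lachnospiraceae, butyrate and acetate forming Clostridia, held 5.05% ± 6.39 of colon (lowest 0.0974%, median 1.92%, highest 20.04%) and 12.5% ± 4.64 of stool (SD, n = 12 each). The log2 difference of unclassified Lachnospiraceae ran from -3.34 to 0.20 over the 5 scalings, with 0.20 under TMM (adjusted p = 0.889) and negative values under all others. It was called lower with library totals (-1.31, edgeR adjusted p = 0.049) and on centred log ratios (-3.34, limma adjusted p = 0.000165). The exact permutation test per genus also called it lower (-2.59, adjusted p = 0.00213). The Lachnospiraceae NK4A136 group held 4.85% ± 5.16 of colon and 8.79% ± 2.87 of stool, and its values ran from -2.79 to 0.78 (adjusted p = 0.35 under TMM). All scalings but TMM gave negative values for this group. It was called lower on centred log ratios (-2.79, limma adjusted p = 0.00138) and by exact permutation (-2.03, adjusted p = 0.00993), but not with library totals (-0.89, edgeR adjusted p = 0.189). Lactobacillus, a lactic acid former, had a median of 0.351% in colon and 4.90% in stool, but 1 colon library, control 2, held 40.7%. With all libraries the Lactobacillus means were 4.20% ± 11.6 and 5.67% ± 2.29 (SD, n = 12 each), and the colon mean without control 2 was 0.875%. The TMM log2 difference of Lactobacillus was -0.55 (adjusted p = 0.636). That library also held 4.89% Candidatus Arthromitus, the segmented filamentous bacteria that attach to gut epithelium, and no other colon library held more than 0.00669%. Candidatus Arthromitus was not called (TMM log2 0.05, adjusted p = 0.997), nor was Mucispirillum, a mucus-dwelling genus, with means of 0.130% in colon and 0.373% in stool (TMM log2 0.13, adjusted p = 0.94).

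**Figure D3:**
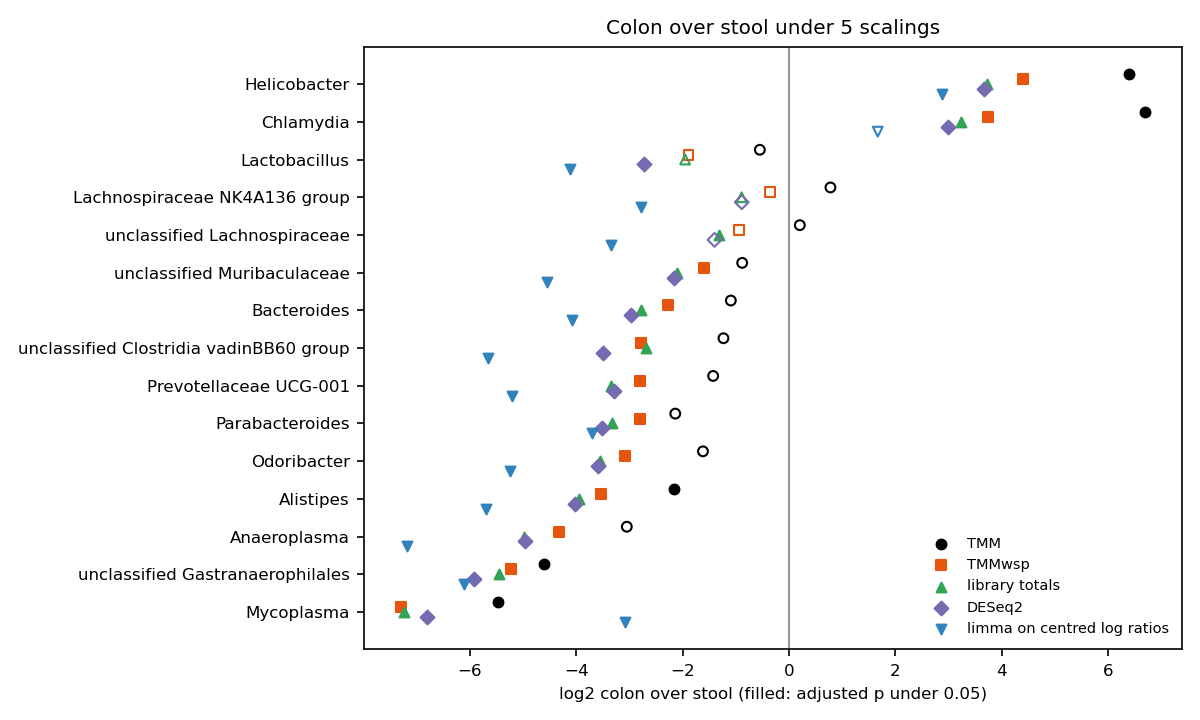
Log2 colon over stool of named genera under 5 scalings, with filled points for an adjusted p under 0.05. Helicobacter lies right of 0 and Alistipes left of 0 with every scaling, whereas unclassified Lachnospiraceae and the NK4A136 group change sides, the TMM points being the rightmost for both.

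The other genera higher in colon were scarce at that site. The 48 genera other than Helicobacter that TMM called higher summed to 5.80% ± 7.02 of colon (lowest 0.576%, highest 26.1%) and 0.251% ± 0.462 of stool (SD, n = 12 each). Chlamydia, an obligate intracellular bacterium chosen here after its values were seen, was the exception in its distribution, because lung held almost none. The genus was 1 feature classified as C. muridarum, a natural parasite of mice. Its shares ran from 0% to 2.44% in colon (median 0.185%) and from 0% to 0.169% in stool (median 0.0372%), with 10 of 12 libraries positive at each site. The means of 0.532% ± 0.728 and 0.0502% ± 0.0493 (SD, n = 12 each) gave a ratio of 10.6, although the ranges overlapped. The log2 difference of Chlamydia was 6.69 with TMM (SE 1.36, edgeR adjusted p = 0.00106) and 3.24 with library totals (adjusted p = 0.0169). It passed under 4 of 5 scalings, with 1.67 on centred log ratios (adjusted p = 0.306), and its lung mean was 0.00229%.

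The remaining 47 genera called higher all had a larger mean share in the lung libraries than in colon. Over all 172 genera tested, 76.2% did so. These 47 summed to 5.27% of colon, 0.201% of stool and 54.2% of lung counts. The part of lung-type or reagent-type signal in their colon shares was not tested. Burkholderia-Caballeronia-Paraburkholderia, soil bacteria that are also known from extraction reagents, was found in every colon library, from 0.111% to 3.56%, and in 10 stool libraries with a median of 0.00622%. Its log2 difference was 6.69 (SE 1.89, edgeR adjusted p = 0.00975), and its lung mean was 7.02% against 1.199% in colon. Sphingomonas, an environmental genus, had means of 0.392% in colon, 0.0164% in stool and 1.85% in lung. Escherichia-Shigella, facultative enterobacteria, had means of 0.259%, 0.00609% and 5.999% in the same order. Faecalibacterium, a butyrate former best known from the human colon, reached 6.72% in 1 colon library around a median of 0.0968%, with 0.01005% in stool and 2.98% in lung. Akkermansia, a mucin degrader, averaged 0.105% in colon, 0.00231% in stool and 5.44% in lung. The log2 difference of Akkermansia was 6.17 (SE 1.82, edgeR adjusted p = 0.0106). The 47 genera thus included anaerobes, enterobacteria and soil bacteria, each at a low mean colon share, although single libraries held more. None of the 47 was called in control libraries alone.

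Of the genera called higher, 13 were detected in no stool library. A further 11 (22.4%) were detected in stool control 1 alone among the stool libraries, against 17.4% of all genera tested. All 13 genera absent from stool that were tested passed the presence filter through colon alone, so their direction was set by the filter and is a description. Among the 150 genera detected at both sites, TMM called 36 higher (24%) and 3 lower (2%). Neisseria, a mucosal genus of the mouth and airway, was detected in 3 colon libraries. Against a floor of 3 counts over all stool libraries, the pooled share of Neisseria was at least 639-fold higher in colon. The corresponding bounds were at least 523-fold for Fusobacterium, an oral anaerobe, and at least 426-fold for Cutibacterium, a skin genus. Acinetobacter, an aerobe described from mouse colonic crypts, was found in 5 colon libraries at up to 0.0725% and was at least 229-fold higher. All of these lung means were above the colon means, at 1.59%, 1.22%, 0.736% and 0.0989% in the order given. The main genera of the oral swabs differed less clearly: Streptococcus held 30.3% of oral counts, 0.107% of colon and 0.0198% of stool, and passed under 3 of 5 scalings. Muribacter, a rodent genus of Pasteurellaceae, held 50.7% of oral counts, 0.0506% of colon and 0.0217% of stool, and passed under 1 of 5.

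**Figure D4:**
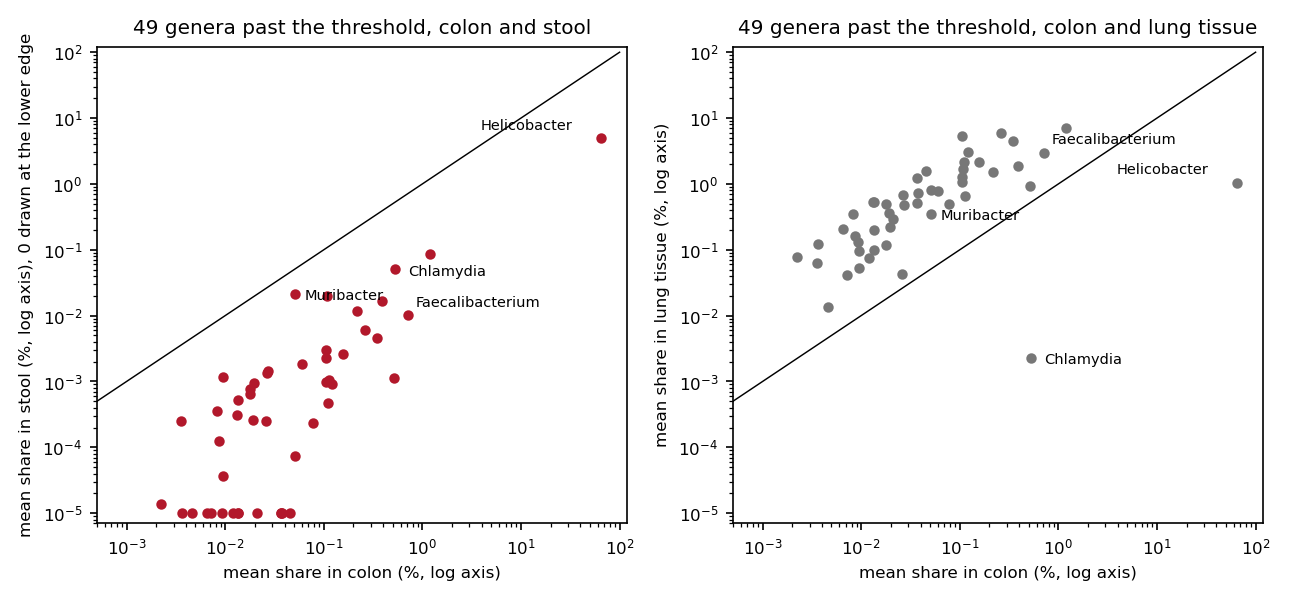
Mean share in colon (%, log axis, horizontal) of the 49 genera called higher under TMM, against their mean share in stool and in lung (%, log axes, vertical, 0 in stool drawn at the lower edge). The other genera tested are not drawn. Over all 172 genera tested, 76.2% had a larger mean share in lung than in colon. Of the 49 genera called higher, 47 lie above the line of equal shares in the lung panel, the exceptions being Helicobacter and Chlamydia.

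The lists of genera fixed by role are given by their counts, to be read against all genera tested, of which TMM called 28.5% higher and 4.07% lower; no difference between lists was tested. Of the 12 tested Bacteroidota fibre and glycan degraders, TMM called 1 higher and 1 lower and library totals 2 higher and 9 lower, and 7 were lower under at least 4 scalings. Their median log2 difference was -1.26 with TMM, beside 1.96 over all genera, and -2.88 with library totals, beside 0.25. They summed to 6.99% ± 7.25 of colon and 43.6% ± 4.6002 of stool (SD, n = 12 each). Of 5 mucus-associated genera, 2 were called higher, Helicobacter and Akkermansia, and none lower. Of 11 butyrate producers, TMM called 4 higher and none lower (median 1.31), the higher ones being low-share genera such as Faecalibacterium. Library totals called 5 higher and 2 lower (median 0.05). Under at least 4 scalings 2 were lower, Odoribacter and Butyricicoccus. The group summed to 7.09% of colon and 16.6% of stool. None of 3 sulfate and sulfite reducers passed under TMM (median 0.81). Of 35 Lachnospiraceae genera, TMM called 5 higher and 1 lower (median 0.85) and library totals 11 higher and 5 lower (median -0.83). Of 10 oral and airway genera, 9 were called higher (median 7.72), at a sum of 0.458% of colon, 0.0431% of stool and 9.30% of lung. Of 6 common reagent genera, 4 were called higher (median 6.58), at 1.84% of colon, 0.118% of stool and 10.5% of lung. The lists of 2 to 4 tested genera, namely enterobacteria, skin genera, crypt-associated aerobes, lactic acid bacteria with bifidobacteria and Erysipelotrichaceae, had 2 members higher each and none lower under TMM. Of 19 Oscillospiraceae and Ruminococcaceae, 5 were higher and 1 lower, and neither of 2 Muribaculaceae genera passed under TMM.

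At higher ranks the scarcity of Bacteroidota in colon passed under both scalings run. Bacteroidota made up 7.63% ± 7.24 of colon and 44.5% ± 4.27 of stool (SD, n = 12 each), a log2 difference of -2.27 with TMM (SE 0.53, edgeR adjusted p = 0.00019) and -2.60 with library totals (adjusted p = 4.95e-06). Of 15 phyla, TMM called 8 higher (53.3%) and 3 lower (20%), 11 in all (73.3%), and library totals 8 higher and 5 lower (33.3%; 86.7% in all). Firmicutes made up 22.9% ± 21.4 of colon and 47.7% ± 4.17 of stool, and its TMM value of -0.75 did not pass (adjusted p = 0.176), while library totals gave -1.06 (adjusted p = 0.0288). The ratio of Firmicutes to Bacteroidota, which does not depend on the amount of Helicobacter, ran from 1.31 to 5.95 in colon (median 2.44) and from 0.868 to 1.69 in stool (median 1.05). It was above every stool library in 9 of 12 colon libraries and above all but 1 stool library in 12. Among 80 families, 35 were higher (43.8%) and 8 lower (10%), 43 in all (53.8%), and library totals called 30 higher (37.5%) and 21 lower (26.2%), 63.8% in all. Rikenellaceae, the family of Alistipes, had means of 0.686% and 7.997% and fell by 2.08 in colon (SE 0.40, adjusted p = 0.000166). Marinifilaceae, the family of Odoribacter, fell by 2.05 (adjusted p = 0.000388). Lachnospiraceae as a family did not pass (log2 0.34, adjusted p = 0.348), and Prevotellaceae passed with library totals alone (-2.12, adjusted p = 0.00249, against -0.09 and 0.866 with TMM).

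Of 960 features tested, TMM called 183 (19.1%), 42 of them higher (4.38%) and the rest lower (14.7%) in colon. The split moved with the scaling, to 9.79% higher and 14.2% lower with TMMwsp, 9.48% and 19.9% with library totals and 5.42% and 15.7% with DESeq2. Under all 4 scalings 24 were higher (2.5%) and 75 lower (7.81%). In the 24 fits without 1 library, 32 to 140 features were higher and 96 to 212 lower. The number higher was more than 1.5 times that with all libraries without colon control 1, colon PET 2, stool control 1, 2, 3 or 5, or any 1 of the 6 stool PET libraries, and the number lower was so without colon control 1. In control libraries alone 6 of 678 features were called (0.885%), 4 higher and 2 lower. Most calls were of features seen at 1 site: of those called lower, 100 were absent from every colon library, and of the 42, 25 were absent from every stool library. Such features passed the presence filter through the site where they are high, and stool libraries averaged 430020 prokaryote counts against 143803 in colon, so these calls are a description. Among the 823 features detected at both sites, 17 were higher (2.07%) and 41 lower (4.98%). The 8 lowest with a stool mean of at least 0.1% included an Alistipes feature found in 9 stool libraries at 0.754% ± 0.927 (SD, n = 12) and in no colon library. Against a floor of 3 counts over all colon libraries it was at least 3852-fold lower in colon (edgeR adjusted p = 3.17e-06). Others were 3 features of the vadinBB60 group, with log2 differences of -7.24, -8.22 and -8.46, an Odoribacter feature, which fell by 8.57 (adjusted p = 0.00423), and 1 of Clostridia UCG-014 that was found in 4 stool libraries, all of the control arm, and no colon library. Its stool mean was 0.361% in control and 0% in PET libraries. The vadinBB60 feature at -8.22 also came almost wholly from control stool, at 0.453% against 0.000738% in PET stool. The last 2 of the 8 were Lactobacillus reuteri features. Each was found in all 12 stool libraries, at means of 0.223% and 0.176%, but in 1 colon library, with log2 differences of -7.42 (adjusted p = 0.0138) and -7.22 (adjusted p = 0.0173). The leading Lactobacillus feature, with no species name, was in all 24 libraries at means of 3.48% in colon and 2.86% in stool. The 2 L. reuteri values were -2.91 (adjusted p = 0.527) and -2.79 (adjusted p = 0.552) in control libraries alone, where neither was called. Of the 8, only the Alistipes and UCG-014 features, both absent from colon, were called in control libraries alone.

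By genus, the vadinBB60 group had 32 features lower of 83 tested (38.6%) and Clostridia UCG-014 had 12 of 48 (25%), beside 14.7% of all features, with 0 higher in either. Of all tested features absent from every colon library, 89.3% were called lower, against 4.98% of those detected at both sites. The rates by genus were not split in this way. They depend on how many features of a genus passed the filter through stool alone, and are a description. Unclassified Lachnospiraceae had 21 lower (13.2%) and 1 higher of 159 tested, near the share over all features. Alistipes had 6 lower and 2 higher of 21 tested, the higher ones at most 0.00622% of colon. Bacteroides features went both ways. The 2 called lower were B. acidifaciens, at means of 0.607% in colon and 5.89% in stool (log2 -3.05, edgeR adjusted p = 0.0424), and B. caecimuris, at 0.0456% and 1.01% (log2 -3.95, adjusted p = 0.0413), both species described from mice. The 5 called higher had colon means of at most 0.0414% and included B. uniformis, B. stercoris, B. thetaiotaomicron and B. fragilis, species known from the human gut. Those 4 had lung means of 0.298%, 0.120%, 0.163% and 0.144%, each above its colon mean. Of the 42 features called higher, 33 (78.6%) had a lung mean above the colon mean, against 182 of all 960 tested. The 6 of them with a colon mean of at least 0.1% were the H. apodemus and H. mastomyrinus features and 1 each of Faecalibacterium, Subdoligranulum, Sphingomonas and Burkholderia-Caballeronia-Paraburkholderia.

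Colon and stool shared most of their reads but not most of their features. Of 2878 features detected at these sites, 914 (31.8%) were found at both and held 97.1% of colon and 96.7% of stool counts. A further 860 were found in colon alone, 771 of them in 1 library each, and 1104 in stool alone. Features present in all 12 colon libraries numbered 13 and held 28.2% of colon counts, while those present in all 12 stool libraries held 46.8% of stool counts and 75.5% of colon counts. Of these, 5 were in all 24. Those 5 were the H. mastomyrinus feature, the leading Lactobacillus feature, B. acidifaciens, a feature of unclassified Lachnospiraceae at 1.61% of colon and 3.90% of stool, and an Odoribacter feature at 0.206% and 2.22%. Stool control 1 stood apart, since 361 of its features, with 12.2% of its counts, were in no other stool library, against 34 to 149 such features in the others. Without it, 72 genera were called higher (44.7%) and 6 lower (3.73%) of 161, and 140 features higher (15.5%) and 148 lower (16.4%) of 904.

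Several Bacteroidota were also lower in colon when Helicobacter counts were left out and the remainder compared. The remainder was 4778 to 153394 counts in colon and 235287 to 575418 in stool. On library totals of the remainder, 66 of 171 genera were higher (38.6%) and 15 lower (8.77%), 81 in all (47.4%), with a median log2 difference of 1.93. Most calls were therefore of genera higher in colon. Burkholderia-Caballeronia-Paraburkholderia, whose mean share was larger in lung than in colon, held 7.87% ± 8.03 of the colon remainder and 0.0910% of the stool remainder. Faecalibacterium, also larger in lung, held 2.14% ± 4.16 and 0.0105% (SD, n = 12). How far such genera lowered the Bacteroidota shares of the colon remainder was not tested. In control libraries alone edgeR called no genus (0%), with 42 at an unadjusted p under 0.05, so none of the calls in this paragraph was made there. Alistipes held 1.07% ± 0.684 of the colon remainder and 6.62% ± 2.23 of the stool remainder (SD, n = 12 each), a log2 difference of -2.63 (SE 0.44, edgeR adjusted p = 0.0001). For Alistipes it was -2.53 in control libraries (adjusted p = 0.0736) and -2.73 in PET libraries (adjusted p = 0.00135). Odoribacter was also lower, by -2.18 (adjusted p = 0.000712; -2.18 with 0.0736 in control libraries), as were Bacteroides (-1.15, adjusted p = 0.00732), Prevotellaceae UCG-001 (-1.77, adjusted p = 0.00879), Parabacteroides (-1.86, adjusted p = 0.0485) and the vadinBB60 group (-1.97, adjusted p = 0.00414). For unclassified Muribaculaceae the difference did not pass (-1.08, adjusted p = 0.0645). Unclassified Lachnospiraceae held 11.8% of the colon and 13.2% of the stool remainder (-0.17, adjusted p = 0.758), and the NK4A136 group 12.4% ± 8.69 and 9.25% ± 3.04 (0.41, adjusted p = 0.404). Neither of these Lachnospiraceae groups passed the test in the remainder. Chlamydia reached 30.3% of the remainder in colon control 4, with a colon median of 0.316% and a stool maximum of 0.173% (log2 6.90, adjusted p = 0.000441).

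Whole communities differed by site with and without Helicobacter. Site took up 0.436 of the squared Bray-Curtis distances (PERMANOVA R2, exact permutation p = 2.34e-06, adjusted p = 5.47e-06), and 0.188 once Helicobacter was left out (exact permutation p = 4.69e-06, adjusted p = 8.20e-06). Colon and stool libraries were on average 0.866 apart, on a scale from 0 to 1, and colon pairs 0.545 and stool pairs 0.556. Without Helicobacter the mean distance between 2 colon libraries rose to 0.783, about that between colon and stool (0.784), while stool pairs stayed at 0.557. The colon library nearest to stool was control 1, at a mean distance of 0.650. The Shannon index, which grows with the number and evenness of features, was 2.37 ± 1.12 in colon and 4.74 ± 0.106 in stool (SD, n = 12 each; exact permutation p = 2.34e-06), with no overlap of ranges. Without Helicobacter it was 4.28 ± 0.598 and 4.74 ± 0.105 (exact permutation p = 0.00498, adjusted p = 0.00581). At 55824 counts a colon library held an expected 323 ± 131.7 features and a stool library 517 ± 97.5 (exact permutation p = 5.62e-05, adjusted p = 7.87e-05). Without Helicobacter, at 4778 counts, the numbers were 275 ± 95.1 and 350 ± 34.9 (exact permutation p = 0.0153). Counted as genera instead of features, the direction of richness was reversed. It was then higher in colon by 18.1 (exact permutation p = 0.043), and by 29.1 without Helicobacter (exact permutation p = 0.00015). The Shannon index of genera without Helicobacter was higher in colon by 0.12 (exact permutation p = 0.33).

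**Figure D5:**
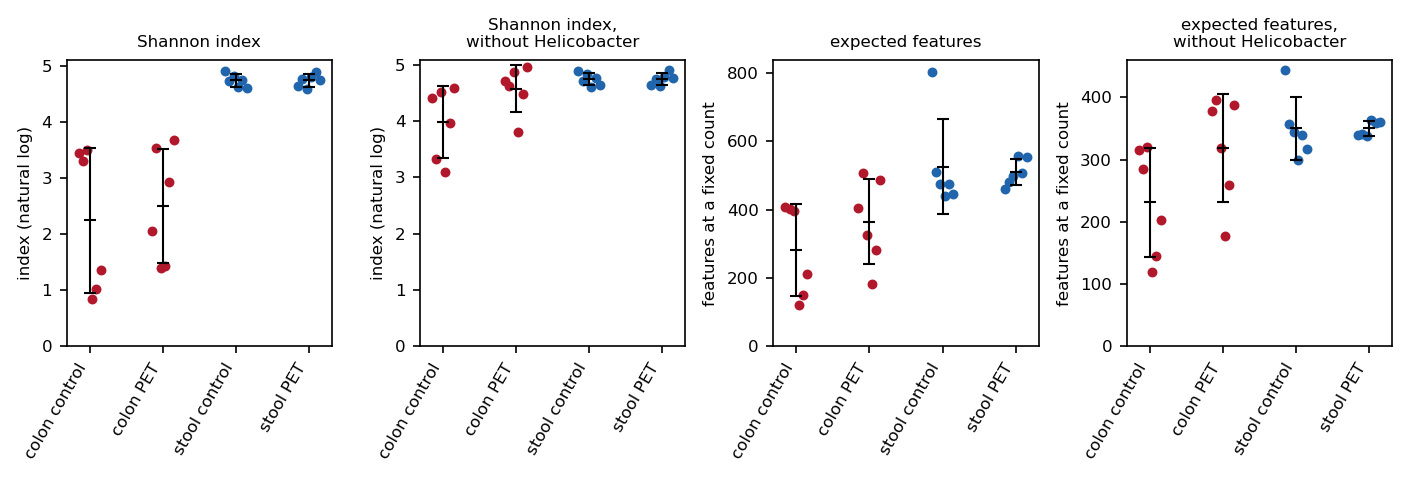
Shannon index and expected number of features per library, with and without Helicobacter counts, for 6 colon control, 6 colon PET, 6 stool control and 6 stool PET libraries, 1 point per library with the group mean. With all prokaryotes the colon libraries lie below every stool library in Shannon index, and without Helicobacter the ranges overlap.

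Within arms the number of genera called differed. Among PET libraries alone 63 genera were higher (43.8%) and 7 lower (4.86%) of 144, or 48.6% in all. Among control libraries alone 1 was higher, Helicobacter (0.8%), and 4 lower (3.2%), or 4% in all, with 37 at an unadjusted p under 0.05. Without stool control 1 the control libraries gave 33 higher (28.9%) and 7 lower (6.14%), or 35.1% in all. A test of the difference between arms, the interaction of site and exposure, called 44 genera with TMM (25.6%), 42 of them (24.4%) with a larger colon excess in the PET arm and 2 (1.16%) with a smaller one. It called 20 with library totals (11.6%), 18 larger (10.5%) and 2 smaller, and 4 with DESeq2 (2.33%). Without stool control 1 the TMM number was 4 of 161 (2.48%), 3 larger (1.86%) and 1 smaller (0.621%), and without colon control 2 it was 1 of 165, larger in the PET arm (0.606%). Lactobacillus was called with TMM, library totals and DESeq2, with means of 8.13% in colon control, 0.257% in colon PET, 4.87% in stool control and 6.46% in stool PET. Its interaction was -3.45 on the log2 scale (edgeR adjusted p = 0.0424), and -2.06 (adjusted p = 0.121) without colon control 2, the library that held 40.7%. The TMM call was also lost without stool control 1 (-4.02, edgeR adjusted p = 0.0715). The interaction for Helicobacter was 0.04 on the log2 scale under TMM (adjusted p = 0.9997) and 0.34 with library totals (adjusted p = 0.9998).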

How the data were processed

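The authors' deposited table holds counts, whole numbers of reads per sequence feature and library with no normalization, and the deposited taxonomy gives each feature its lineage with the classifier's confidence as a fraction. Tools in the submitters' processing notes are Bowtie2 and cutadapt, with the mouse build GRCm39; which denoiser and classifier made the tables is not given in the sources used here. Of 8574 features, 7922 were prokaryote and were used. Features or genera needed 10 counts in all and presence in 3 of the libraries fitted, which gave 172 genera and 960 features. Fits used edgeR 4.0.16 with TMM and exposure as a block. The fit without Helicobacter used library totals. The alternatives used DESeq2 1.42.0, limma 3.58.1, other scalings and filters, single arms and fits without 1 library. Share differences used log2 of counts with a pseudocount of 0.5. Exact permutations exchanged site within arms. Scripts were tested on simulated data. Counts of PCR reads are not independent molecules, so floors cover counting error only.

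Named genera were the 10 most abundant at each site, up to 10 highest and 10 lowest called genera with a mean of at least 0.01%, and called list members. Named features were Helicobacter features of at least 0.1%, up to 8 highest and 8 lowest called features of at least 0.1%, and features of genera called in both directions. The members, lists and tests were chosen with earlier results of these data known. Phyla under library totals, the ratio of Firmicutes to Bacteroidota, the make-up of Helicobacter, the interaction without 1 library and the control arm without stool control 1 were chosen after seeing the data.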

Additional observations from a re-analysis of the deposited data

Results flagged for a closer look

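Of 88 checks of 6 libraries for 1 value far from the rest, 21 met the criterion. Chance gives about 1 in 20 groups where values are normally distributed. Shares and counts cannot fall below 0 and need not be so distributed, and every flag was of the highest library. The number flagged is therefore a description. In colon control the highest library stood apart for Lactobacillus (40.7%), Bacteroides (6.30%), the Clostridia vadinBB60 group (6.17%), Burkholderia-Caballeronia-Paraburkholderia (3.56%) and Faecalibacterium (0.654%). In colon PET it stood apart for total counts (280575), unclassified Lachnospiraceae (20.04%), the H. typhlonius feature (9.85%), unclassified Muribaculaceae (7.38%), Faecalibacterium (6.72%), the vadinBB60 group (3.57%), Clostridia UCG-014 (1.69%) and Alistipes (1.49%). In stool control it stood apart for richness (804 features), the Lachnospiraceae NK4A136 group (13.3%), Alistipes (10.2%), the H. ganmani feature (5.66%), Clostridia UCG-014 (5.54%), Burkholderia-Caballeronia-Paraburkholderia (0.980%) and Faecalibacterium (0.0893%), and in stool PET for Burkholderia-Caballeronia-Paraburkholderia (0.0154%).

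With TMM and all libraries, a difference between the arms in colon over stool was called for 8 named genera (edgeR, interaction, log2 PET minus control). The value was -3.45 for Lactobacillus (adjusted p = 0.0424) and 7.74 for Burkholderia-Caballeronia-Paraburkholderia (adjusted p = 0.0154). It was 13.39 for Dialister (adjusted p = 0.00239), 11.53 for Veillonella (adjusted p = 0.0149) and 10.41 for UCG-002 (adjusted p = 0.0154). It was 9.76 for the Christensenellaceae R-7 group (adjusted p = 0.0154), 9.20 for Agathobacter (adjusted p = 0.0173) and 8.995 for Prevotella (adjusted p = 0.0173). Without stool control 1 it was 0.85 for Burkholderia-Caballeronia-Paraburkholderia (edgeR adjusted p = 0.9998) and -0.98 for Prevotella (adjusted p = 0.913). That fit could not estimate it for Agathobacter, Veillonella, UCG-002 and the Christensenellaceae R-7 group, with SE from 3866 to 11002. Of these 8, only Dialister passed both without stool control 1 (9.32, adjusted p = 0.0114) and without colon control 2 (12.12, adjusted p = 0.0425). It also passed with library totals (11.49, adjusted p = 0.00126), while DESeq2 gave 9.06 with no adjusted p. Its interaction is a fitted value and no bound, since stool PET was at 0%. Lactobacillus alone of the 8 passed with DESeq2 (-4.89, adjusted p = 0.00472). The mean share of Dialister was 1.02% in colon PET, 0.0190% in colon control, 0.00229% in stool control and 0% in stool PET, and 1 colon library held 5.94%.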

How the results depend on the processing

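No paired analysis was possible because no label ties a colon and a stool library to the same mouse, and replicate numbers here are accession order. The share of genera called, 32.6% (56), became 55.2% (95) with library totals, 70.3% with limma on centred log ratios (65 higher, 56 lower), 64.4% (192) with no filter on low counts, 51.8% (57) with the stricter filter, 4% (5) in control libraries only, 52% (91) with non-prokaryote features and 74.4% by exact permutation (78 higher, 50 lower). Without 1 library it was 28.8% to 51.5%, being 50.6%, 49.1% and 51.5% without colon PET 2, 3 and 6 and 49.4% without stool PET 4. The share of features called, 19.1% (183), became 29.4% (282) with library totals, 19.7% with the stricter filter (48 higher, 64 lower) and 0.885% (6) in control libraries only, and 16.8% to 31.9% without 1 library (31.9% without stool control 1, 29.7% without colon control 1). Without Helicobacter, 47.4% of genera (81) became 43.1% (47) with the stricter filter and 0% in control libraries only (edgeR, 42 at an unadjusted p under 0.05), and 42.8% to 51.5% without 1 library. The interaction share of 25.6% became 11.6% with library totals and 2.33% with DESeq2, and 0.606% to 2.48% without colon control 2 or stool control 1. Counted on genera, 3 differences changed sign, to higher in colon. The Shannon difference without Helicobacter was 0.12 (exact permutation p = 0.33). The richness difference was 18.1 (exact permutation p = 0.043), and 29.1 without Helicobacter (exact permutation p = 0.00015). Without any 1 library, direction and call were kept by the Helicobacter share difference (3.54 to 3.84), the Bray-Curtis R2 (0.415 to 0.481, and 0.173 to 0.214 without Helicobacter), the Shannon index (-2.49 to -2.23; without Helicobacter -0.523 to -0.375) and richness (-208 to -166; -83.7 to -60.6).

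Unclassified Lachnospiraceae (log2 0.20 with TMM) gave -0.94 with TMMwsp, -1.31 with library totals, -1.40 with DESeq2, -3.34 with limma, -0.82 with no filter, -0.80 with the stricter filter, -0.023 without the block, -0.93 in control (-0.90 without stool control 1) and -0.40 in PET libraries, -0.50 with non-prokaryote features, -0.52 without the 2 stool libraries numbered apart, -2.59 by exact permutation and -0.82 to 0.77 without 1 library. The Lachnospiraceae NK4A136 group (0.78) gave -0.36, -0.89, -0.89, -2.79, -0.39 and -0.27 under the first 6 of these, -0.52 in control libraries (-0.59 without stool control 1), -0.0037 with non-prokaryote features, -0.016 without those 2 libraries, -2.03 by exact permutation and -0.23 to 1.18 without 1 library. Lactobacillus (-0.55) gave 0.55 without the block and 0.86 in control libraries (0.74 without stool control 1), and the H. typhlonius feature (0.51) gave -0.51 to 1.97 without 1 library. The cause of these changes was not tested. The colon remainder without Helicobacter, 4778 counts at its lowest, limits what that comparison can show for scarce genera.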
